A study of Homo sapiens
Mus musculus and Mus musculus and Homo sapiens with 16 samples.

Results

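The genes described here were 10 tetraspanins of REC-1 cells, named by symbol as TSPAN13, TSPAN3, TSPAN33, CD37, CD53, CD63, CD81, CD82, CD9 and CD151. They were taken by symbol from the table of human gene counts, in which each symbol was found, so that 10 of 58051 human genes and 10 of the 33 tetraspanin genes looked up were covered. The list was chosen by name with the counts of these same libraries in view, that is the levels and the group differences of the human genes in Sep, Susp and Adh, so the differences between REC-1 groups are given for them as a description without p-values. REC-1 is a human mantle cell lymphoma (MCL) line, a B-cell tumor, and MS-5 is a mouse stromal line from bone marrow. Transcripts were sequenced from REC-1 cells grown alone (Sep), from REC-1 cells that stayed in suspension in a coculture with MS-5 (Susp), from REC-1 cells adhered to MS-5 in that coculture (Adh), and from MS-5 cells grown alone. Each group had 4 libraries, no group carried a drug or a genetic change, and all cells were in the same medium. Cocultures were started with 500000 MS-5 cells per dish, to which 5000000 REC-1 cells were added, and RNA was taken 24 h later. An Adh library held RNA of both species, because adhered cells were not taken off the stroma, and its reads were sorted into human and mouse by sequence before alignment. The study describes its replicates as independent experiments, while the labels do not say what a replicate number marks, so the p-values below measure the spread between these libraries.

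Tetraspanins are small membrane proteins that cross the membrane repeatedly and expose a short and a long loop outside the cell. They bind one another and their partner proteins side by side in the membrane, where they gather integrins, receptors, proteases and antigen-presenting molecules into patches called tetraspanin-enriched microdomains. In B cells the family is known for shaping integrin-dependent adhesion and for sorting proteins into endosomes and secreted vesicles.

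Human counts per library ran from 9325412 to 12597891 in Sep, from 15000927 to 21467832 in Susp and from 7758979 to 13241751 in Adh, and mouse counts from 29495404 to 34615602 in Adh and from 10097555 to 17397651 in MS-5. Levels are given as counts per 1000000 counts (CPM) on library sizes scaled by TMM, a method that sets libraries to a common level over most genes. The B-cell and MCL markers checked the label: 7 of 8 passed the low-count filter and their summed level was 4802 to 5549 CPM in Sep, 5255 to 6248 in Susp and 5033 to 5633 in Adh, whereas CD5 was near 0. The human stromal markers did not pass the filter and summed to at most 0.513 CPM in any REC-1 library. Susp replicate 2 stood apart: over genes, its chi-square per degree of freedom against the other Susp libraries was 52.8 to 57.4, compared with 6.76 to 10.1 among those and 4.19 to 20.8 within Sep and Adh. It was the highest Susp library for 8 of the 10 tetraspanins and the highest of all 12 for 6 of them, so the members' comparisons with Susp are given with and without it. To a lesser degree Sep replicate 1 also differed, at 10.3 to 20.8 against the other Sep libraries, compared with 4.19 to 5.21 among those. For CD37, CD81, CD82 and CD151 that library was the lowest of all 12. A fit without Sep replicate 1 alone was not run. Libraries also differed with the GC content of genes. In the 20% of tested genes richest in GC, at 57.3% or more, the median log2 difference was 0.19 for Susp minus Sep and −0.27 for Adh minus Susp, compared with −0.12 and 0.14 in the 20% poorest in GC. Part of this trend came with Susp replicate 2. Without that library the medians were 0.10 and −0.18 in the genes richest in GC, and −0.07 and 0.09 in the poorest. CD81 (64.9% GC), CD151 (62.6%), TSPAN33 (59.5%), CD37 (58.5%) and CD82 (58.4%) belonged to the GC-rich class, while TSPAN13 (41.5%), CD53 (45.6%) and TSPAN3 (47.5%) were poorer in GC.

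The long outer loop of a tetraspanin carries a Cys-Cys-Gly motif that defines the family. The coding windows around it are shown for TSPAN13 and CD82, the members with a called difference, for CD81 and CD53, which shared the most and the fewest short runs with their mouse orthologs, and for CD9, whose mouse ortholog was abundant in the same libraries. Each window is 57 bases of spliced coding sequence, 5′ to 3′, from GENCODE release 44 (GRCh38) or mouse release 21 (GRCm38), and the capitals mark the 3 codons of the motif.
human TSPAN13: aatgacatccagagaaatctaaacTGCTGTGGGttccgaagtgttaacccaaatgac
mouse Tspan13: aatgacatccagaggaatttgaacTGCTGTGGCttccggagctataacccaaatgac
human CD82: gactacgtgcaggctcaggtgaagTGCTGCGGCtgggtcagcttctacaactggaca
mouse Cd82: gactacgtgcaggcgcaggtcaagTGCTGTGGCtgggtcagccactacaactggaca
human CD81: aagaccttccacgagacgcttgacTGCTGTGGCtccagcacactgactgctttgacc
mouse Cd81: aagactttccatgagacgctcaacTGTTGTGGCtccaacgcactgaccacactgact
human CD53: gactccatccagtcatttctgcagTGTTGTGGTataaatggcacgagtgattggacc
mouse Cd53: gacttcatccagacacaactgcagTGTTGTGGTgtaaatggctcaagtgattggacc
human CD9: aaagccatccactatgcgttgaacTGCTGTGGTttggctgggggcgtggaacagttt
mouse Cd9: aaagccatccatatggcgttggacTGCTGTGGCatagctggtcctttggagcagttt
The human TSPAN13 window lies at chr7:16777843-16777899 (plus strand), within exon 4 of 6, and its motif starts at codon 128 of 204. The other windows span an exon junction: CD82 at chr11:44615356-44618200 (exons 7 and 8 of 10), CD81 at chr11:2395503-2395907, CD53 at chr1:110895038-110896691 and CD9 at chr12:6235310-6235514 (exons 5 and 6 of 8 in each of the last 3), all on the plus strand. Of the 57 bases, 49 were identical between human and mouse in TSPAN13, 52 in CD82, 45 in CD81, 49 in CD53 and 43 in CD9. Over whole coding sequences the identity between species ran from 81.2% for CD82 to 90.9% for TSPAN3. Of all 25-base runs of the human transcript, the share also found in the mouse ortholog was 5.49% for CD81, 4.08% for CD9, 1.68% for TSPAN13 and 0% for CD53. The mouse counts are set beside the Adh values below.

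The 10 genes made up most of the tetraspanin transcripts of REC-1 cells. For comparing genes, CPM was divided by exon length in kilobases (RPKM), with the union of all annotated exons as the length. That union exceeds the main annotated transcript by unequal amounts. It is 7986 against 1482 bases in CD81, 5829 against 1225 in CD9 and 2152 against 1505 in CD53. The order and the shares below hold for this length, and other lengths were not tested. CD53, found on leukocytes in general, stood first with 189 ± 18.3 RPKM in Sep (SD, n = 4), followed by CD37, a tetraspanin typical of mature B cells, with 64.6 ± 6.76, and CD63, a resident of late endosomes and secreted vesicles, with 53.2 ± 3.23. CD53 was above CD37 in every library of each group, whereas CD37 and CD63 overlapped in Sep and Susp and separated in Adh, at 68.1 ± 4.81 and 59.0 ± 2.30 RPKM. A middle group in Sep held CD151 (15.2 ± 2.23), CD82 (14.4 ± 1.57), CD81 (12.4 ± 1.08) and TSPAN3 (11.5 ± 0.992), whose neighbors overlapped, and TSPAN33 followed at 8.06 ± 0.494. TSPAN13 was lower at 3.95 ± 0.264 RPKM, and CD9 was the lowest member at 0.811 ± 0.118. Summed RPKM of the 10 genes was 92.7% of that of all 33 family genes in Sep, 94.4% in Susp and 93.5% in Adh, and CD53 alone gave 46.9%, 42.9% and 45.9%.

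**Figure D1:**
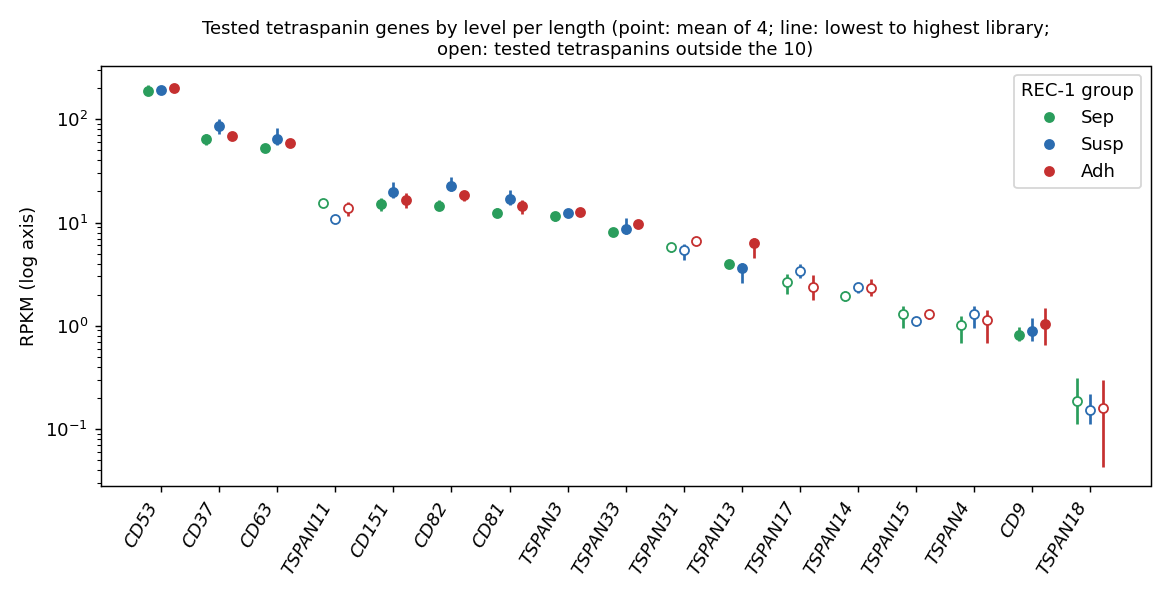
RPKM on a log axis for each tetraspanin gene that passed the low-count filter, ordered by its mean in Sep, with points for means of 4 libraries and lines from the lowest to the highest library. Filled points are the 10 members and open points other tetraspanins. CD53 stands near 190 RPKM in each group, and TSPAN13 moves from 3.95 in Sep to 6.38 in Adh.

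TSPAN13, among the less characterized tetraspanins, was the member with the widest range, 2.73-fold between its highest and lowest library. It was read at 7.64, 8.70, 7.74 and 7.58 CPM in Sep replicates 1 to 4, at 8.10, 7.99, 7.49 and 5.24 in Susp, and at 14.3, 14.3, 13.6 and 8.98 in Adh. Each Adh library was above every Sep and Susp library, though Adh replicate 4 was close to the highest Sep value, and Sep and Susp overlapped. On the log2 scale Adh was 0.83 above Susp (SE 0.18) and 0.70 above Sep (SE 0.18), and Susp differed from Sep by −0.13 (SE 0.18), or −0.19 without Susp replicate 2. Differences passed edgeR's thresholds over all genes, an adjusted p of at most 0.05 and a fold of at least 1.5, for TSPAN13 in both Adh comparisons. These calls belong to the contrasts known when the gene was listed and stand here as a description. Of all 12861 tested genes, 0.109% were called higher in Adh than in Susp and 0.583% higher in Adh than in Sep. The Adh values rested on 190, 148, 106 and 70 human counts, and the mouse ortholog Tspan13 had 2, 2, 4 and 8 counts in the same libraries, so that 97.0% of counts under this symbol were human. No other gene overlaps the exons of TSPAN13 in the annotation (chr7:16753755-16784536, plus strand). The call between Adh and Susp was lost when any 1 of replicates 1 to 4 was left out, with log2 differences of 0.82 to 0.85, and was kept without Susp replicate 2 (0.90) and without Adh replicate 4 (0.96). The call between Adh and Sep was lost without replicate 1 (0.62), 2 (0.70) or 3 (0.66) and with upper-quartile scaling (0.70).

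CD82 (chr11:44564427-44620358, plus strand), also called KAI1 and described as a suppressor of metastasis, was the member that differed most between the suspended cells and the monoculture. Its level was 53.1, 66.9, 53.9 and 59.4 CPM in Sep, 82.0, 111, 88.9 and 82.1 in Susp, and 65.7, 76.2, 75.5 and 79.8 in Adh. All Susp libraries were above all Sep and all Adh libraries, and Adh overlapped with Sep through replicate 1. Susp exceeded Sep by 0.64 on the log2 scale (SE 0.11), Adh was 0.30 below Susp, at −0.30 (SE 0.11), and 0.35 above Sep (SE 0.12). CD82 was the single member called in Susp against Sep, where 0.428% of all tested genes were called higher. Without Susp replicate 2, Adh minus Susp was −0.17 and Susp minus Sep was 0.52, below the fold threshold, and the call of Susp against Sep was also lost without replicate 3 (0.62), without replicate 4 (0.70) and after correction for GC content and length (0.48). After that correction Adh minus Susp was −0.06. The exons of CD82 share 280 bases with its antisense gene CD82-AS1, and the kit did not keep strand, so reads of that stretch could not be told apart.

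The leukocyte tetraspanins CD53 and CD37 were the most abundant members and differed in how much they varied. CD53 (chr1:110871188-110899922, plus strand) was read at 464, 383, 403 and 378 CPM in Sep, 422, 445, 404 and 395 in Susp, and 450, 425, 399 and 436 in Adh. The groups overlapped throughout, the whole range over 12 libraries was 1.23-fold, and the largest difference was 0.07 (SE 0.08, Adh minus Sep). Without Susp replicate 2, Susp minus Sep of CD53 moved from 0.03 to −0.0098 and Adh minus Susp from 0.04 to 0.08. CD37 (chr19:49335171-49343335, plus strand), a target of antibodies in B-cell lymphoma, was at 235, 297, 257 and 286 CPM in Sep, 301, 420, 371 and 327 in Susp, and 261, 308, 274 and 290 in Adh. Each Susp library of CD37 was above every Sep library, by a narrow gap between 297 and 301, while Adh overlapped with both. The log2 difference was 0.40 (SE 0.11) for Susp minus Sep, −0.32 (SE 0.11) for Adh minus Susp and 0.08 (SE 0.11) for Adh minus Sep. Without Susp replicate 2 the first 2 of these were 0.30 and −0.22, and with GC and length correction 0.24 and −0.08. The mouse table listed 0 counts for Cd37 in all Adh and MS-5 libraries and 44 to 75 for Cd53 per Adh library, so these human values had little mouse signal beside them. Exons of CD37 overlap those of TEAD2 by 319 bases on the opposite strand.

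CD81 and CD9 are close relatives that both bind the immunoglobulin-like EWI proteins. CD81 (chr11:2376177-2397802, plus strand) was read at 91.8, 99.99, 93.4 and 111 CPM in Sep, 121, 163, 133 and 117 in Susp, and 97.1, 120, 108 and 131 in Adh. Its Susp libraries were above all Sep libraries, and Adh lay across both. Differences were 0.43 (SE 0.12) for Susp minus Sep, −0.23 (SE 0.12) for Adh minus Susp and 0.20 (SE 0.12) for Adh minus Sep. The middle one changed sign with GC and length correction, to 0.22, while the other 2 became 0.23 and 0.45, and without Susp replicate 2 they were 0.31, −0.10 and 0.21. CD9 (chr12:6199715-6238271, plus strand) was scarce, at 4.25, 4.85, 5.65 and 4.15 CPM in Sep, 5.58, 7.01, 4.16 and 4.16 in Susp, and 3.76, 5.78, 6.17 and 8.72 in Adh. The 3 groups of CD9 overlapped and Adh held both its lowest and its highest library. The difference between Adh and Sep was 0.35 (SE 0.25) and fell to 0.14 without Adh replicate 4. Susp minus Sep moved from 0.15 (SE 0.25) to −0.03 without Susp replicate 2, and Adh minus Susp from 0.20 (SE 0.25) to 0.39, or to −0.01 without Adh replicate 4. The human CD9 counts in Adh, 226 in all, stood beside 54866 counts of mouse Cd9, or 0.412% of them. The part in it of reads assigned to the wrong species was not tested. For the stromal markers COL1A1, COL3A1 and PDGFRB, the human count in Adh was at most 0.00516% of the mouse count. The human stromal markers together were near 0 in both groups, at 0.157 to 0.502 CPM in Sep and 0 to 0.513 in Adh. The ratio of human to mouse counts was also read for 6 other tetraspanin genes. These had too few human counts to be tested and a tested mouse ortholog. It was 0% for TSPAN32, 0.0342% for TSPAN9, 0.0762% for ROM1, 0.204% for TSPAN5, 0.345% for TSPAN6 and 0.927% for TSPAN12. That range includes the 0.412% of CD9. Sep, which held no mouse cells, had reads of these 6 genes too. Their mean shares of summed tetraspanin RPKM ran from 0.00289% (TSPAN9) to 0.0655% (ROM1) in Sep. In Adh they ran from 0% (TSPAN32) to 0.0527% (TSPAN12). Such a ratio can hold transcripts of REC-1 as well as misassigned reads, so it does not measure misassigned reads alone. The size of each part was not tested.

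**Figure D2:**
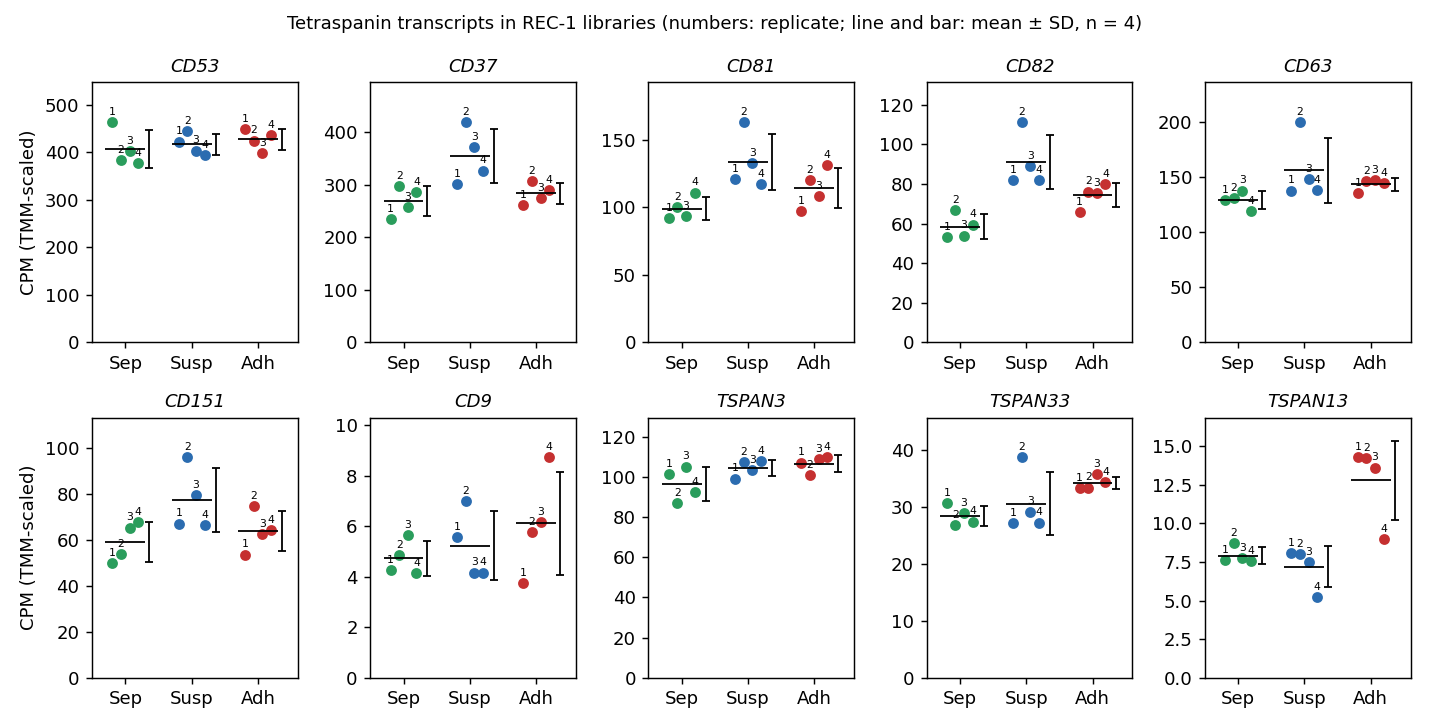
CPM of the 10 tetraspanins in each REC-1 library, with numbered points for replicates, a line for the mean and a bar for the SD of 4 libraries, on axes that start at 0. Susp replicate 2 is the top point in 6 panels, and in the TSPAN13 panel the 4 Adh points lie between 8.98 and 14.3 CPM, above every other point.

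CD63 marks late endosomes and exosomes, and CD151 binds laminin-receptor integrins and links them to adhesion. CD63 (chr12:55725323-55729707, minus strand) was at 129, 131, 137 and 119 CPM in Sep, 137, 199.6, 148 and 138 in Susp, and 135, 146, 147 and 144 in Adh. Its Susp minus Sep difference of 0.27 (SE 0.11) became 0.12 without Susp replicate 2, the library that alone reached 199.6 CPM. Adh minus Susp moved from −0.12 to 0.03 without that library. CD151 (chr11:832887-839831, plus strand) was at 49.9, 53.9, 65.3 and 67.9 CPM in Sep, 67.1, 95.9, 79.6 and 66.5 in Susp, and 53.5, 74.6, 62.6 and 64.3 in Adh, with groups that overlapped. Its differences were 0.38 (SE 0.14) for Susp minus Sep, −0.28 (SE 0.14) for Adh minus Susp and 0.11 (SE 0.14) for Adh minus Sep. Without Susp replicate 2 they were 0.26, −0.15 and 0.11, and with GC and length correction 0.17, 0.07 and 0.24. POLR2L overlaps 257 exonic bases of CD151 on the opposite strand, and antisense genes overlap CD63 by 120 and CD81 by 30 bases.

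TSPAN33 belongs to the TspanC8 tetraspanins, which bind the protease ADAM10 and guide it to its substrates, and it is known from activated B cells. It lies at chr7:129144707-129169699 (plus strand). Its level was 30.7, 26.8, 28.9 and 27.4 CPM in Sep, 27.2, 38.7, 29.2 and 27.3 in Susp, and 33.3, 33.4, 35.7 and 34.4 in Adh. All Adh libraries were above all Sep libraries and above 3 of the 4 Susp libraries, the exception being Susp replicate 2. Adh exceeded Sep by 0.26 (SE 0.12) and Susp by 0.16 (SE 0.12), and the latter was 0.31 without Susp replicate 2 and 0.43 with GC and length correction. Susp minus Sep was 0.11, and −0.04 and −0.09 under the same settings. Its mouse ortholog had 2 counts in all Adh libraries together. TSPAN3 (chr15:77041404-77083984, minus strand), studied in acute myeloid leukemia, was at 101, 86.9, 105 and 92.7 CPM in Sep, 99.2, 108, 103 and 108 in Susp, and 107, 101, 109 and 109.8 in Adh. Its groups overlapped and its differences were 0.12, 0.03 and 0.14 (SE 0.08 each) for Susp minus Sep, Adh minus Susp and Adh minus Sep. They were 0.09, 0.06 and 0.15 without Susp replicate 2, and with GC and length correction the middle one was −0.01.

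Over the 10 members, the median log2 difference was 0.21 for Susp minus Sep, with 9 of 10 above 0, 0.18 for Adh minus Sep, with 10 of 10 above 0, and −0.05 for Adh minus Susp, with 5 of 10 above 0. The first and the last depended on Susp replicate 2. When it was left out, Susp minus Sep had a median of 0.11 with 6 of 10 above 0, and the median of Adh minus Susp changed sign, to 0.05 with 6 of 10 above 0. With GC and length correction, Susp minus Sep had a median of 0.17 with 8 of 10 above 0, and Adh minus Susp one of 0.08 with 7 of 10 above 0. Adh minus Sep kept 10 of 10 above 0 under both settings, with medians of 0.18 and 0.29, while CD151 fell below 0 there without replicate 2. Over all tested genes the medians were −0.01, −0.00 and −0.01. Groups did not overlap for 3 members in Susp against Sep (CD37, CD81 and CD82, all higher in Susp), where 5.5% of all genes were higher without overlap. In Adh against Sep this held for 2 members, TSPAN13 and TSPAN33, where 7.42% of all genes were higher without overlap. In Adh against Susp TSPAN13 was higher and CD82 lower without overlap, beside 5.61% and 5.84% of all genes. The members were listed with these contrasts known, and each group enters 2 of the 3 comparisons. The libraries are of bulk RNA, in which a change in the level per cell cannot be told from a change in the share of cells that make the transcript.

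**Figure D3:**
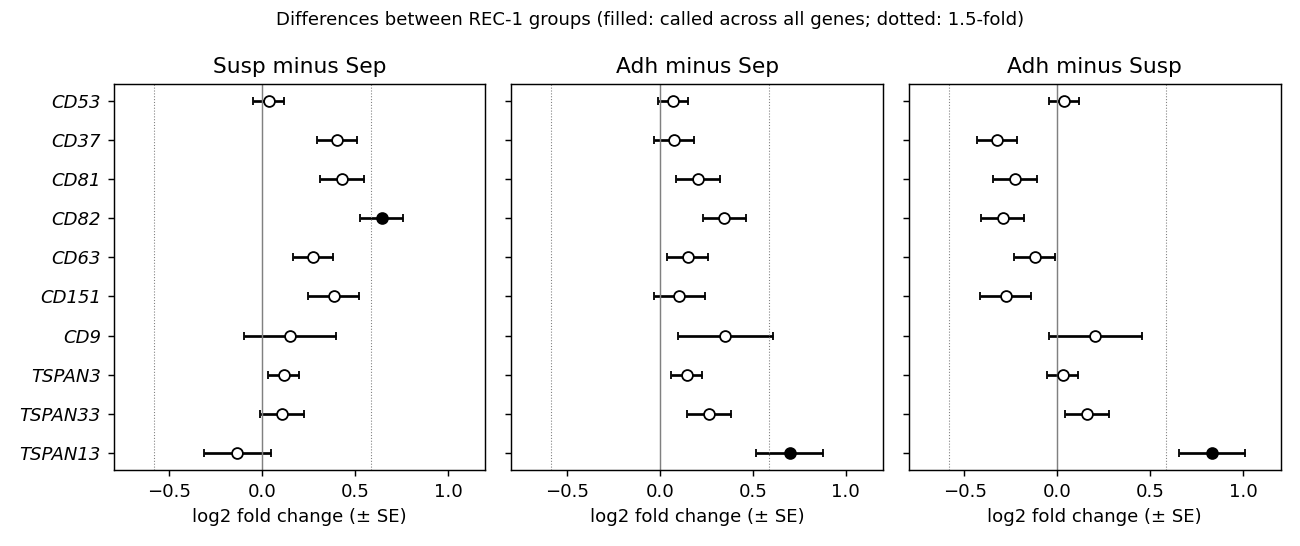
Log2 differences between REC-1 groups for the 10 tetraspanins, with bars for the SE of the edgeR model, filled points for genes called over all genes and dotted lines at a fold of 1.5. Only CD82 (0.64, Susp minus Sep) and TSPAN13 (0.70 and 0.83, Adh minus Sep and Adh minus Susp) are filled.

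Of the 23 other tetraspanin genes, 7 passed the low-count filter (TSPAN4, TSPAN11, TSPAN14, TSPAN15, TSPAN17, TSPAN18 and TSPAN31), and the remaining 16 had at most 14 counts in any library. By edgeR's quasi-likelihood test with Benjamini-Hochberg adjustment over all genes, 0 of the 7 were called in each of the 3 comparisons, and DESeq2 also called 0. Of all 12861 tested genes, edgeR called 0.778% in Adh against Susp, 0.731% in Susp against Sep and 2.4% in Adh against Sep. At an unadjusted p below 0.05 there were 3 of the 7 in Adh against Susp, 3 in Susp against Sep and 0 in Adh against Sep. Over all 12861 tested genes there were 2316, 2145 and 2596 in the same order. These 7 genes were left over when the members were listed with the group differences in view. Their calls and p-values depend on that choice and stand as a description. TSPAN11 was the one that came closest. It was at 108, 114, 115 and 108 CPM in Sep, 81.8, 70.5, 83.1 and 72.3 in Susp, and 101, 112, 82.4 and 98.9 in Adh, so that all Susp libraries were below all Sep libraries. Its Susp minus Sep difference was −0.53 (SE 0.10, edgeR adjusted p = 0.0115), which was within the fold threshold, and it passed that threshold without replicate 1 (−0.59) and with GC and length correction (−0.62). It was −0.499 without Susp replicate 2. At 15.6 RPKM in Sep it stood level with CD151 and CD82, and in Susp it fell below TSPAN3 in rank, at 10.8 RPKM. Adh minus Susp differences of the other tested genes ran from −0.53 for TSPAN17 (adjusted p = 0.14) to 0.27 for TSPAN31 (adjusted p = 0.243). Exons of TSPAN31 share 1369 bases with CDK4 on the opposite strand, so reads of that stretch could not be told apart. The 4 tested TspanC8 genes, TSPAN14, TSPAN15, TSPAN17 and TSPAN33, had median differences of 0.07, 0.19 and 0.12 in Adh minus Susp, Susp minus Sep and Adh minus Sep, and 0 were called. These medians were 0.08, 0.12 and 0.12 without Susp replicate 2.

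Tetraspanins act through their partners, and 30 of 35 partner genes looked up passed the filter. This list was also chosen with earlier results of these data known. The calls and p-values of partner genes, here and in the next paragraph, therefore stand as a description. edgeR called 1 of the 30 in Adh against Susp (higher), 2 in Susp against Sep (1 higher and 1 lower) and 1 in Adh against Sep (higher), beside 0.778%, 0.731% and 2.4% of all tested genes. CR2, a complement receptor of B cells that associates with CD81, was at 195, 195, 174 and 172 CPM in Sep, 133, 93.3, 122 and 129 in Susp and 148, 140, 135 and 149 in Adh, and fell from Sep to Susp by 0.63 (SE 0.10, adjusted p = 0.0055). Without Susp replicate 2 its difference was −0.54 (adjusted p = 0.000906), below the fold threshold, as it was without replicate 2 (−0.51) and with GC and length correction (−0.58), and without replicate 3 it did not pass (−0.66, adjusted p = 0.0981). IFITM1, an interferon-induced membrane protein that also associates with CD81, was low, at 1.67 to 3.11 CPM in Sep, 4.45 to 6.33 in Susp and 4.43 to 6.16 in Adh. It was higher in Susp than in Sep by 1.03 (SE 0.22, adjusted p = 0.0298) and in Adh than in Sep by 0.999 (SE 0.23, adjusted p = 0.024). The first call was lost without Susp replicate 2 (0.92, adjusted p = 0.0697), and the second without Adh replicate 4 (0.91, adjusted p = 0.0697). The first was also lost when any 1 of replicates 1 to 4 was left out (0.88 to 1.17), and the second without replicate 1, 3 or 4 (0.87 to 1.09).

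CD44, an adhesion receptor for hyaluronan and a substrate of ADAM10, was at 102, 90.4, 76.1 and 82.3 CPM in Sep, 65.5, 54.3, 71.2 and 69.2 in Susp and 126, 117, 115 and 114 in Adh. It was higher in Adh than in Susp by 0.86 (SE 0.11, adjusted p = 0.000477), and was called in that comparison under all 13 alternatives (0.796 without Susp replicate 2). The monoculture lay between: Adh minus Sep was 0.43 (SE 0.11, adjusted p = 0.0363), below the fold threshold, and Susp minus Sep −0.43 (SE 0.11, adjusted p = 0.0681), and neither was called. CD44 is listed among the partners of TSPAN33 as a substrate of the protease, and ADAM10 itself did not pass, at −0.08 to 0.09 over the 3 comparisons (adjusted p from 0.746 to 0.964). Of the EWI proteins that bind CD81 and CD9, IGSF8 gave 0.39 for Susp minus Sep (SE 0.20, adjusted p = 0.337) and PTGFRN had 0 counts in every REC-1 library. The integrin subunits that pair as VLA-4, ITGA4 and ITGB1, gave 0.17 and −0.01 in Adh minus Susp and did not pass (adjusted p = 0.532 and 0.985). PTPN6, a phosphatase bound by CD37, gave 0.36 in Susp minus Sep (SE 0.09, adjusted p = 0.0681), and SDCBP, the syntenin that works with CD63 in vesicles, gave 0.14 (SE 0.10, adjusted p = 0.463). With Susp replicate 2 left out, these Susp minus Sep differences were 0.34 for IGSF8, 0.31 for PTPN6 and 0.12 for SDCBP, and Adh minus Susp was 0.02 for ITGA4 and −0.10 for ITGB1. HLA-DRA, a class II chain that associates with several tetraspanins, was low and uneven, at 0.787 to 3.18 CPM in Sep, 0.580 to 3.57 in Susp and 2.57 to 16.2 in Adh. Its Adh minus Susp difference was 1.87 (SE 0.56, adjusted p = 0.114) and its Adh minus Sep difference 2.04 (SE 0.59, adjusted p = 0.0654). The highest library was Adh replicate 3, and without replicate 3 the differences were 0.76 and 1.15. Both were called with no low-count filter and with GC and length correction, and the Adh minus Sep difference also with the replicate block, by DESeq2, without replicate 2 and without Susp replicate 2. The other tested class II genes were lower in Adh than in Susp. HLA-DMA gave −0.60 (SE 0.18, edgeR adjusted p = 0.108) and HLA-DMB −0.37 (SE 0.36, adjusted p = 0.59). DESeq2 called HLA-DMA in that comparison. Adh minus Sep was −0.37 for HLA-DMA and 0.14 for HLA-DMB.

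CD63 ranked high in both species, whereas CD53 and CD37, which led in REC-1 cells, were scarce or at 0 in the stroma. In MS-5 cells alone, Cd9 stood at 210.1 ± 10.4 RPKM (SD, n = 4), Cd63 at 180.3 ± 10.45, Cd151 at 116 ± 6.03 and Cd81 at 98.8 ± 5.01. In contrast, Cd53 was at 0.883 ± 0.110 RPKM, and Cd37 and Tspan33 had 0 counts in MS-5 alone. Within the mixed Adh libraries, human counts were 100% of both species for CD37, 99.9% for TSPAN33, 98.6% for CD53 and 97.0% for TSPAN13. For CD82 they were 40.0%, for TSPAN3 28.2%, for CD81 10.7%, for CD63 6.18%, for CD151 5.41% and for CD9 0.410%. These shares also follow the numbers of cells and of counts of each species in a dish, so they describe the mixture and not a level per cell.

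**Figure D4:**
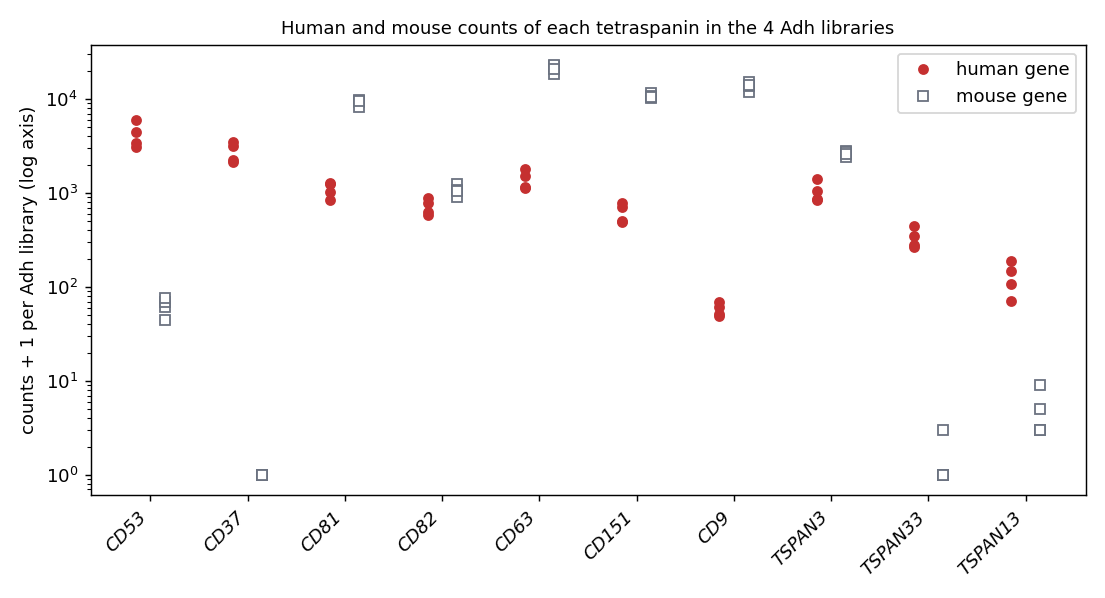
Human (filled circles) and mouse (open squares) counts of each tetraspanin gene plus 1, on a log axis, in the 4 Adh libraries. The human counts of CD53, CD37, TSPAN33 and TSPAN13 lie above the mouse counts, and those of CD9 lie below them by the widest margin, 226 against 54866 in all.

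The mouse genes were not used in listing the members, so they were tested. In the comparison of Adh with MS-5 alone, 18 mouse tetraspanin genes passed the low-count filter, and edgeR called 0 of them beside 0.205% of all 12201 tested genes. DESeq2 also called 0. In the edgeR test 2 of the 18 genes had an unadjusted p below 0.05, beside 1374 of all 12201 tested genes. Orthologs of the members were tested for 7 genes, with log2 differences from −0.02 (Cd63, SE 0.05) to 0.33 (Cd53, SE 0.27), and adjusted p-values from 0.436 to 0.998. Cd82 gave 0.19 (SE 0.09, adjusted p = 0.436), with 25.5 to 31.6 CPM in MS-5 alone and 31.2 to 37.0 in Adh. Cd9 gave −0.02 (SE 0.05, adjusted p = 0.938) and Cd81 0.00 (SE 0.05, adjusted p = 0.998), and Cd151 gave 0.07 (SE 0.05, adjusted p = 0.675). Tspan13, Tspan33 and Cd37 had too few counts to be tested, between 0 and 8 in any library.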

How the data were processed

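Transcripts of 12 REC-1 libraries and 4 MS-5 libraries were compared. The authors sorted read pairs by species with Xenome, aligned them with STAR 2.5.1b and counted them per gene with featureCounts (Subread 1.5.2) on GRCh38 and GRCm38. The deposited values were raw counts, neither normalized nor filtered. In each library, 65.0 to 79.2% of human counts from 1 to 20 were even, so a count may be a read rather than a pair. Another 20 columns of samples outside these groups were not used.

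Counts were fitted in R 4.3.3 with edgeR 4.0.16 (filterByExpr, TMM, quasi-likelihood test with legacy = TRUE) in 1 model of Sep, Susp and Adh (12861 genes) and 1 of the mouse counts of Adh and MS-5 (12201 genes). Calls required a fold of at least 1.5 and a p of at most 0.05 after Benjamini-Hochberg adjustment. SE is the log2 fold change divided by the root of F. RPKM used exon unions of GENCODE release 44 and mouse release 21. Members and lists were chosen with earlier results of these data known. Named genes were the members, other tetraspanins past the filter, partner genes called in any comparison with a preset set of partners, and the mouse orthologs. TSPAN5, TSPAN6, TSPAN9, TSPAN12, TSPAN32, ROM1, COL1A1, COL3A1, PDGFRB, HLA-DMA and HLA-DMB were named after their values were seen. Alternatives were a replicate term, upper-quartile scaling, DESeq2 1.42.0, other low-count filters and left-out libraries. After seeing the data, a GC and length correction (loess, span 0.3), removal of Adh replicate 4 and counts divided by 2 were added. Tested on simulated counts, the Adh against Susp fit recovered 165 of 200 changed genes with 3 false calls. The planted folds were larger than that of any member, and no simulated library stood apart. Recovery of smaller differences was not tested. Low depth limits genes of a few CPM.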

Additional observations from a re-analysis of the deposited data

Results flagged for a closer look

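Over 51 groups of 4 REC-1 libraries (17 tetraspanins in 3 groups), 2 held a library that stood apart from the other 3 by Dixon's criterion, where chance gives about 1 in 20 groups. Both concerned TSPAN13. In Sep, replicate 2 was at 8.70 CPM while the others lay between 7.58 and 7.74. In Adh, replicate 4 was at 8.98 CPM, on 70 counts, while the others lay between 13.6 and 14.3. Without Adh replicate 4 the log2 difference of TSPAN13 was 0.96 between Adh and Susp and 0.83 between Adh and Sep, and it was called in both.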

How the results depend on the processing

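Calls over all genes moved with the fit. Between Adh and Susp, 100 genes were called, and 281 with the replicate block, 282 with DESeq2, 341 with no low-count filter and 25 to 89 when 1 replicate or library was left out. Between Susp and Sep, 94 were called, and 175, 173, 217 and 24 to 87 in the same order. Between Adh and Sep, 309 were called, and 527 with DESeq2, 503 with no filter, and 92 to 519 with 1 replicate or library left out, 519 being without Susp replicate 2. In mouse counts 25 were called, 45 with the block, 45 with no filter and 7 to 27 with 1 replicate left out. Deviations of libraries with the same number correlated above 0.1 for 1 of 4 numbers (Adh and Susp; Susp and Sep), 3 of 4 (Adh and Sep) and 2 of 4 (Adh and MS-5), so the number was not taken as a pairing, and the block changed no member's call.

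The count of members called, 1 in each comparison, was 0 with 1 replicate left out in Adh against Susp (0 to 0) and 0 to 1 in the other 2. In Susp against Sep it was 0 without Susp replicate 2 and 0 with GC and length correction, and in Adh against Sep it was 0 with upper-quartile scaling. The cause was not tested. TSPAN13 was above 0 in both Adh comparisons under all 13 alternatives, from 0.82 to 0.96 against Susp and from 0.62 to 0.83 against Sep.

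Signs changed under an alternative for 5 members in Adh minus Susp (CD151, CD63, CD81, CD9 and TSPAN3), 3 in Susp minus Sep (CD53, CD9 and TSPAN33) and 1 in Adh minus Sep (CD151). They also changed for 8, 5 and 5 of the other human genes named, in the same order, and for 4 mouse genes. None of these differences was called. HLA-DMA and HLA-DMB, named later, were not part of this count. Ranges are over the fits that left out 1 replicate or library. In Adh minus Susp, ITGB1 ran from −0.10 to 0.047 and was 0.0058 with the block and 0.0021 with DESeq2, TSPAN14 ran from −0.11 to 0.067, and TSPAN18 from −0.42 to 0.27. IFITM1 ran from −0.14 to 0.16 (0.17 with GC and length correction) and ADAM10 from −0.039 to 0.21 (−0.026 with the correction). With the correction TSPAN4 was 0.21, IGSF8 0.026 and PTPN6 0.095. In Susp minus Sep, ADAM10 ran from −0.16 to 0.060 (0.12 with the correction), TSPAN18 from −0.67 to 0.17, TSPAN31 from −0.13 to 0.015 and HLA-DRA from −0.35 to 0.40, and ITGB1 was 0.028 with the correction. In Adh minus Sep, SDCBP ran from −0.11 to 0.013, TSPAN18 from −0.60 to 0.41, ADAM10 from −0.028 to 0.058, TSPAN15 from −0.13 to 0.12 (0.016 with the correction) and IGSF8 from −0.075 to 0.26. In the mouse counts, Cd81 ran from −0.0052 to 0.015, Tspan6 from −0.099 to 0.031, Rom1 from −0.013 to 0.11 and Tspan14 from −0.067 to 0.026.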
